A study of Mus musculus with 6 samples.

Results

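Prostaglandins and leukotrienes, the main eicosanoids, were followed here through 10 genes of their synthesis, breakdown, and reception among the 57126 genes of the count data. The enzymes were *Pla2g4a*, *Ptgs1*, *Ptgs2*, *Hpgds*, *Hpgd*, *Alox5*, *Alox5ap*, and *Ltc4s*, and the receptors were *Ptgir* and *Ltb4r1*. They were chosen by name for their place in the pathway, with their counts in these same 6 samples already known, so their own values are given as a description without a test. All 10 were found by their gene identifiers.

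RNA was sequenced from CD8+ T cells of OT-I origin, which come from mice transgenic for a T cell receptor against a peptide of ovalbumin. Every sample was expanded with nano-aAPCs, iron oxide particles that carry the peptide on its MHC-I molecule together with anti-CD28, and was harvested on day 6. The 3 TEff samples received IL-2 and the 3 TRM-like samples IL-2, IL-15, and TGF-β, so that the effect of IL-15 and that of TGF-β cannot be told apart. The cells were cultured outside the animal, no age is given in the labels, and nothing says whether the replicates came from separate mice or cultures, so the p-values below measure only the spread between these samples, which may be technical.

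Eicosanoids are made from arachidonic acid that phospholipase A2 frees from membrane lipids. Cyclooxygenases turn it into prostaglandin H2, from which separate synthases make prostaglandins D2, E2, and F2α, prostacyclin, and thromboxane, while the lipoxygenase of *Alox5*, helped by the membrane protein of *Alox5ap*, makes the precursor of leukotriene B4 and of the cysteinyl leukotrienes. Each product acts on its own G protein-coupled receptors. In CD8+ T cells, leukotriene B4 is known as an attractant of effector cells, and prostaglandins that raise cAMP are known to restrain T cell activation.

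The samples held between 18319013 and 23622621 counted reads. TRM-like replicates 1 and 2 stood apart from the other samples. By chi-square per gene, a distance between the counts of 2 samples, they were 7.26 from each other and 96.3 and 112 from TRM-like replicate 3, which was 41.9, 82.4, and 37.4 from TEff replicates 1 to 3. Of 2011 olfactory and vomeronasal receptor genes, which T cells are not known to use, 53.4% and 57.1% had at least 1 count in these samples, against 2.69 to 3.18% in the TEff samples and TRM-like replicate 3. The mean level of these silent genes was equal to 0.641 and 0.654 counts per kilobase in the former and 0.0679 to 0.111 in the latter. CD8 T cell markers summed to 2600 to 2660 CPM, the counts scaled to a common TMM-adjusted library size, in TEff samples and to 3330 to 4200 in TRM-like samples, and all 7 were detected in every sample. Levels are given below as CPM and, when genes are compared with each other, as RPKM, CPM per kilobase of the deposited gene length.

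Most of the synthesis route was barely counted in either group. *Hpgds*, the hematopoietic prostaglandin D synthase, *Ltb4r1*, the high-affinity receptor for leukotriene B4, and *Ptgir*, the prostacyclin receptor, had counts that could be compared, and the other 7 genes had at most 11 counts in any sample. Of the 10 genes, 7 had at least 1 count in at least 3 samples and entered the edgeR fit. *Pla2g4a*, *Ptgs2*, and *Hpgd* did not. Of the 7, *Hpgds* was past the threshold with a higher level in TRM-like samples, and *Ptgir* and *Ltb4r1* with a lower one. The threshold was an adjusted p below 0.05 with an absolute log2 fold change above 0.58, and over all 26154 genes tested 3.01% passed it, 1.52% higher and 1.48% lower. The same 3 genes had no overlap between the groups, as had 20.3% of all genes tested, 10.6% with TRM-like samples higher and 9.71% with TRM-like samples lower. *Hpgds* and *Ptgir* were no longer past the threshold when any single TEff replicate was left out, nor *Ptgir* without TRM-like replicate 2. Since the genes were selected on this comparison, nothing is read from these counts. In bulk RNA, fewer cells that use a gene and less of its RNA per cell cannot be told apart.

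**Figure D1:**
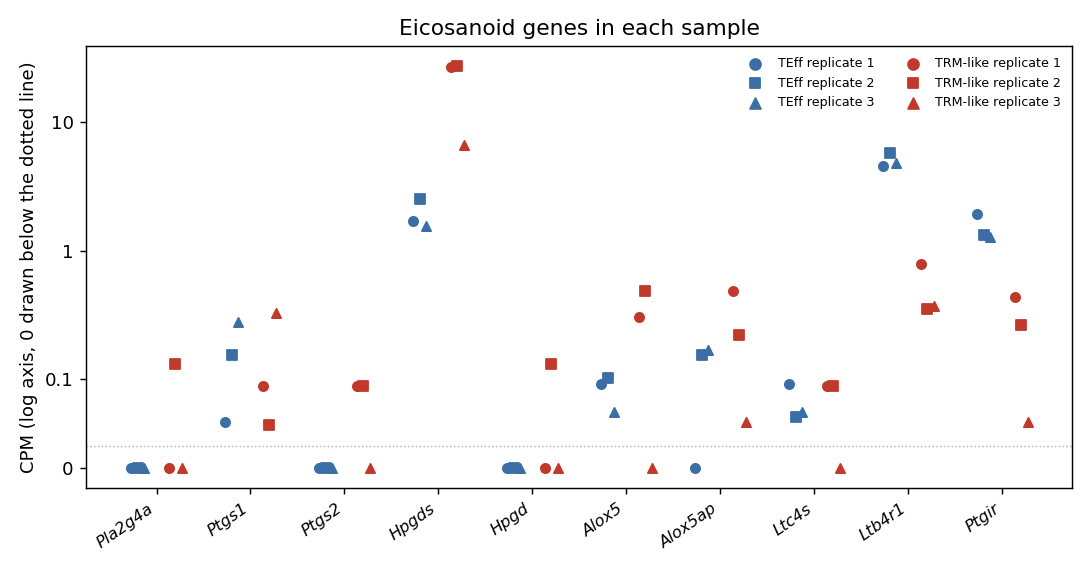
Level of the 10 eicosanoid genes in each of the 6 samples, in CPM on a log axis, with samples at 0 drawn below the dotted line. Blue symbols are TEff and red symbols TRM-like samples, and the symbol shape gives the replicate number. *Hpgds* was at 6.69 to 27.5 CPM in TRM-like samples and 1.55 to 2.53 CPM in TEff samples, *Ltb4r1* and *Ptgir* lay lower in every TRM-like sample, and the other 7 genes stayed under 0.5 CPM.

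The 250 bases before the annotated start of *Hpgds*, *Ltb4r1*, and *Ptgir*, the 3 genes on which the comparison turns, are shown to place their promoters. They were read from GRCm39 on the strand of each gene, 5′ to 3′, and whether they hold an exon of another gene was not checked. Capitals mark matches, on either strand, to CAGAC (the core of SMAD sites, the factors downstream of TGF-β), TGTGGT (RUNX), and CCNCNCCC (KLF or SP).

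*Hpgds*, chr6:65121984-65122233, minus strand: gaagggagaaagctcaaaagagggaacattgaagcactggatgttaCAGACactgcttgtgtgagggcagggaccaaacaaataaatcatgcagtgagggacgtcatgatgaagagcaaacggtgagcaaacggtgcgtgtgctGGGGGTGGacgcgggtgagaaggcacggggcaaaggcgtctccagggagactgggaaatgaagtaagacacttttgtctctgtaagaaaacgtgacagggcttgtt
*Ltb4r1*, chr14:56003042-56003291, plus strand: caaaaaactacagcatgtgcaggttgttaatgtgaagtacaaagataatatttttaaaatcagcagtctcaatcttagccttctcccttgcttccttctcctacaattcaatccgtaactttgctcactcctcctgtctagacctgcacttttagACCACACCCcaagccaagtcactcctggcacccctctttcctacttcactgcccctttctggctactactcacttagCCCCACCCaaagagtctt
*Ptgir*, chr7:16640165-16640414, plus strand: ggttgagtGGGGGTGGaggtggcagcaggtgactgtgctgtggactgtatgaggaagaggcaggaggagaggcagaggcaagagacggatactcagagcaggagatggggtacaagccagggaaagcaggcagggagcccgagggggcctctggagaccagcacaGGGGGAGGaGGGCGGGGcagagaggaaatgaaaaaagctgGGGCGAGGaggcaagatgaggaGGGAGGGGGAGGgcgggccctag

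The *Hpgds* window held 1 match to CAGAC and 1 to CCNCNCCC. The *Ltb4r1* window held 1 match to TGTGGT, which overlapped the first of its 2 matches to CCNCNCCC. The *Ptgir* window held 6 matches to CCNCNCCC, of which the last 2 overlapped. None of the 3 windows held the AP-1 motif TGANTCA, the motif GATAAG of GATA factors, or the cAMP response element TGACGTCA. Among 21685 windows of the same length before protein-coding genes, 41.9% held the SMAD motif, 44.1% that of KLF or SP, 13.8% that of RUNX, 6.8% that of GATA factors, 6.5% that of AP-1, and 1.3% the cAMP response element, so the matches in these windows are of common kinds. A match describes letters only, and no binding was measured.

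*Hpgds* turns prostaglandin H2 into prostaglandin D2 and is best known from mast cells, antigen-presenting cells, and type 2 helper T cells. The gene (ENSMUSG00000029919) lies on the minus strand at chr6:65094001-65121983 of GRCm39. It was counted 37, 50, and 28 times in TEff replicates 1 to 3 and 623, 630, and 145 times in TRM-like replicates 1 to 3. These counts equal 1.69, 2.53, and 1.55 CPM in TEff samples and 27.2, 27.5, and 6.69 CPM in TRM-like samples. All TRM-like samples were above all TEff samples, and TRM-like replicate 3 lay between the TEff samples and the other TRM-like samples. The group means were 1.92 ± 0.531 CPM and 20.5 ± 11.9 CPM (SD, n = 3), and the log2 fold change was 3.41 (SE 0.52). With TRM-like replicate 3 alone against the TEff samples it was 1.79.

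The *Hpgds* level moved with the number of counts on silent genes among the TRM-like samples. At the mean level of the silent genes, a gene of its length would have 2.23 and 2.27 counts in TRM-like replicates 1 and 2, against the 623 and 630 counted. Taking that level off each sample's counts left the log2 fold change at 3.45. The gene overlaps *Gm17147*, a processed pseudogene on the other strand with 2, 3, and 1 counts in TEff samples and 24, 21, and 5 in TRM-like samples. Reads on overlapping genes cannot be told apart here because the strand setting of the counting is not given, but the counts on *Gm17147* were few beside those on *Hpgds*.

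Since mast cells and basophils make prostaglandin D2, their markers were summed in each sample. The 7 markers together reached 5.03 to 6.73 CPM in TEff samples and 57.0, 51.9, and 6.69 CPM in TRM-like replicates 1 to 3. Nearly all of the TRM-like sum was *Kit*, the receptor for stem cell factor, at 55.2, 49.6, and 5.95 CPM, against 3.15, 4.56, and 3.76 CPM in TEff replicates 1 to 3. Without *Kit* the sums were 1.83, 2.23, and 0.738 CPM in TRM-like replicates 1 to 3 and 1.87, 2.18, and 1.38 CPM in TEff replicates 1 to 3. *Fcer1a*, a chain of the IgE receptor that defines these cells, had no count in any sample. *Ms4a2*, another chain, had at most 2, and the tryptase *Tpsb2* had at most 1. *Hdc* and *Cpa3* were counted in every sample. *Hdc* had 30, 28, and 18 counts in TEff replicates 1 to 3 and 26, 26, and 12 in TRM-like replicates 1 to 3. *Cpa3* had 10, 14, and 6 counts in TEff samples and 11, 18, and 4 in TRM-like samples. *Mcpt8* had 1, 1, and 1 counts in TEff samples and 3, 4, and 0 in TRM-like samples. *Kit*, like *Hpgds*, was highest in TRM-like replicates 1 and 2 and lowest in the TEff samples, though its TRM-like replicate 3 lay close to the TEff samples. The part of *Kit* in the *Hpgds* result was not tested.

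*Ltb4r1* encodes the receptor through which leukotriene B4 draws effector T cells and neutrophils. The gene (ENSMUSG00000046908) lies on the plus strand at chr14:56003292-56005951. It was counted 100, 114, and 88 times in TEff replicates 1 to 3 and 18, 8, and 8 times in TRM-like replicates 1 to 3. On the CPM scale it was at 4.57, 5.77, and 4.86 in TEff samples and at 0.785, 0.349, and 0.369 in TRM-like samples. The groups were far apart. The TRM-like samples ran from 0.349 to 0.785 CPM, and TRM-like replicate 3 lay within that range. The means were 5.07 ± 0.625 CPM and 0.501 ± 0.246 CPM (SD, n = 3), with a log2 fold change of -3.32 (SE 0.33).

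The count expected for *Ltb4r1* at the silent level was 0.894 and 0.912 in TRM-like replicates 1 and 2. With TRM-like replicate 3 alone against the TEff samples, the log2 fold change was -3.76. *Gm56758*, an lncRNA that overlaps the gene on the same strand, had 3, 3, and 3 counts in TEff samples and 4, 0, and 7 in TRM-like samples. Neutrophil markers, taken because neutrophils carry the same receptor, summed to 0.137 to 0.221 CPM in TEff samples and 0.0461 to 0.262 CPM in TRM-like samples, and *S100a8* and *S100a9* had no count in any sample. Dendritic cell markers summed to 10.2 to 15.4 CPM in TEff samples and to 10.6, 8.65, and 3.18 CPM in TRM-like replicates 1 to 3, and eosinophil or ILC2 markers to 1.06 to 2.1 CPM and 0.175 to 0.654 CPM. Both of these sums were lower in some or all TRM-like samples, and their part in the *Ltb4r1* and *Ptgir* results was not tested.

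*Ptgir* encodes the receptor for prostacyclin, which raises cAMP. The gene (ENSMUSG00000043017) lies on the plus strand at chr7:16640415-16644848. It was counted 42, 26, and 23 times in TEff replicates 1 to 3 and 10, 6, and 1 times in TRM-like replicates 1 to 3. The levels were 1.92, 1.32, and 1.27 CPM in TEff samples and 0.436, 0.262, and 0.0461 CPM in TRM-like samples. Every TRM-like sample was under every TEff sample, and the lowest of all was TRM-like replicate 3. The means were 1.50 ± 0.363 CPM and 0.248 ± 0.195 CPM (SD, n = 3), with a log2 fold change of -2.56 (SE 0.54).

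The size of the *Ptgir* difference depended on the samples with counts on silent genes. At the silent level, at most 2.18 counts would fall on *Ptgir* in TRM-like replicates 1 and 2, against 10 and 6 counted. The log2 fold change was -2.89 with the silent level taken off and -4.86 with TRM-like replicate 3, which had 1 count, alone against the TEff samples.

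*Pla2g4a* and the cyclooxygenases were close to the limit of counting. Other genes of arachidonate release were not, with 143 to 252 counts of *Pla2g6*, a calcium-independent phospholipase A2, in each sample. *Pla2g4a*, the cytosolic phospholipase A2 that frees arachidonic acid, was counted 3 times in TRM-like replicate 2 and in no other sample. *Ptgs2*, the inducible cyclooxygenase, had 2 counts each in TRM-like replicates 1 and 2 and none elsewhere. *Ptgs1*, the constitutive cyclooxygenase, was counted 1, 3, and 5 times in TEff replicates 1 to 3 and 2, 1, and 7 times in TRM-like replicates 1 to 3, and its highest counts in both groups came from replicate 3. A count of 0 allows up to 3 counts, equal to 0.137 to 0.166 CPM in TEff samples and 0.131 to 0.138 CPM in TRM-like samples.

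None of these counts in TRM-like replicates 1 and 2 stood far above the silent level. For *Pla2g4a* that level was equal to 1.96 and 2.00 counts, for *Ptgs2* to 2.86 and 2.91, and for *Ptgs1* to 1.84 and 1.88. In replicate 3 of each group *Ptgs1* was above it, with 7 counts against 0.245 in TRM-like and 5 against 0.195 in TEff. The log2 fold change of *Ptgs1* was -0.04 (SE 0.89), and leaving out single samples gave -1.16 to 0.61, so that no difference in either direction was detectable at this depth. No fold is given for *Pla2g4a* and *Ptgs2*, which did not exceed 3 counts in any sample. *Hpgd*, the dehydrogenase that inactivates prostaglandins, was likewise counted 3 times in TRM-like replicate 2 alone, where the silent level was equal to 1.10 counts.

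The leukotriene enzymes were also near the limit of counting. *Alox5*, the lipoxygenase that starts leukotriene synthesis, was counted 2, 2, and 1 times in TEff replicates 1 to 3 and 7, 11, and 0 times in TRM-like replicates 1 to 3. *Alox5ap*, which presents arachidonic acid to it, was counted 0, 3, and 3 times in TEff samples and 11, 5, and 1 times in TRM-like samples. The groups overlapped for both genes because of TRM-like replicate 3. The log2 fold changes were 1.60 (SE 1.01) for *Alox5* and 1.25 (SE 0.99) for *Alox5ap*.

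The higher counts of this pair came from the samples with counts on silent genes, where the silent level was equal to 1.81 and 1.85 counts for *Alox5* and 0.863 and 0.881 counts for *Alox5ap*. With that level taken off each sample's counts, the log2 fold changes were 1.29 and 1.12. That of *Alox5* was 0.57 in limma-voom and 0.85 without TRM-like replicate 2, and that of *Alox5ap* was 0.37 without TRM-like replicate 1 and 0.64 without TEff replicate 1. With TRM-like replicate 3 alone against the TEff samples the fitted values turned negative, but no sample then exceeded 3 counts and no fold is given. *Ltc4s*, which makes leukotriene C4, had 2, 1, and 1 counts in TEff replicates 1 to 3 and 2, 2, and 0 in TRM-like replicates 1 to 3, and no fold is given. *Gm26542*, an antisense lncRNA over *Ltc4s*, had 18 to 23 counts in TEff samples and 10 to 24 in TRM-like samples, more than the gene itself, and with the strand setting not given the reads of the pair cannot be told apart. Macrophage or monocyte markers, a cell type rich in these enzymes, summed to 4.07 to 5.08 CPM in TEff samples and 4.67, 4.89, and 2.77 CPM in TRM-like replicates 1 to 3, and their part in the *Alox5* and *Alox5ap* values was not tested. Platelet markers, taken for *Ptgs1*, summed to 0.557 to 0.995 CPM in TEff samples and 0.507 to 0.785 CPM in TRM-like samples, and *Gp1bb* had no count.

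**Figure D2:**
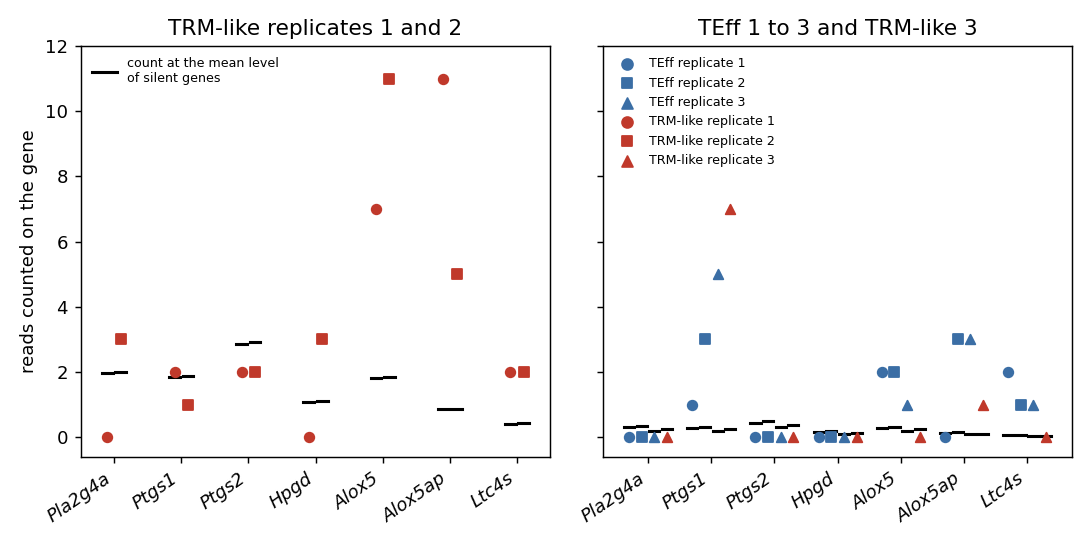
Counts of the 7 eicosanoid genes with at most 11 counts in any sample, on a linear axis of reads counted on the gene. The left panel shows TRM-like replicates 1 and 2 and the right panel the TEff samples and TRM-like replicate 3. Black dashes give the count a gene of that length would have at the mean level of 2011 silent genes, which reached 2.91 counts for *Ptgs2* in TRM-like replicate 2.

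Per length, *Ltb4r1* was the highest of the 10 genes in TEff samples and *Hpgds* in TRM-like samples. In TEff samples, *Ltb4r1* was at 3.64 ± 0.449 RPKM, *Hpgds* at 0.553 ± 0.153, *Ptgir* at 0.451 ± 0.109, and *Ltc4s* at 0.101 ± 0.0343 (SD, n = 3). *Hpgds* and *Ptgir* overlapped in their RPKM values, while *Ltb4r1* was above and *Ltc4s* below both in every sample. In TRM-like samples, *Hpgds* was at 5.89 ± 3.43 RPKM, *Ltb4r1* at 0.359 ± 0.176, *Alox5ap* at 0.184 ± 0.162, *Alox5* at 0.0929 ± 0.0862, *Ltc4s* at 0.0893 ± 0.0773, and *Ptgir* at 0.0744 ± 0.0586. Only *Hpgds* was separate from its neighbour there, and the RPKM ranges of *Ltb4r1* and *Alox5ap* overlapped, as did those of each following pair. *Alox5ap*, *Ptgs1*, and *Alox5* were at 0.0787, 0.0551, and 0.0293 RPKM in TEff samples, and *Ptgs1* was at 0.0527 RPKM in TRM-like samples.

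Set among all 26154 genes tested, by mean RPKM, *Hpgds* lay above 39.2% of them in TEff samples and above 68.9% in TRM-like samples. *Ltb4r1* lay above 62.4% in TEff samples and above 33.7% in TRM-like samples, and *Ptgir* above 36.6% and 14.5%. The highest place of the other genes was that of *Alox5ap* in TRM-like samples, above 25.0% of genes.

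The genes most like these 3 in pattern were taken as those with the smallest root mean square difference of log2(CPM + 0.5) over the 6 samples, each gene centred on its own mean, among genes with a mean of at least 1 CPM. For *Hpgds* they included *S1pr3* and *Dapk2*, at differences of 0.211 and 0.249. *Dapk2*, for example, was at 9.37, 13.3, and 10.9 CPM in TEff samples and 110, 109, and 44.9 CPM in TRM-like samples. For *Ltb4r1* they were *Scart2*, *Podnl1*, and *Havcr2*, at 0.146, 0.226, and 0.226, and for *Ptgir* they were *Itih5*, *Gm11579*, and *Ica1*, at 0.165, 0.171, and 0.176. *Havcr2*, which encodes the inhibitory receptor TIM-3, was at 22.0, 19.6, and 23.9 CPM in TEff samples and 4.88, 3.98, and 3.74 CPM in TRM-like samples. The added 0.5 CPM is above every TRM-like value of *Ptgir* (0.436, 0.262, and 0.0461 CPM) and narrows differences between low values. *Itih5* was at 127, 132, and 127 CPM in TEff samples and 57.1, 52.5, and 33.1 CPM in TRM-like samples. *S1pr3* was at 0 CPM in the TEff samples, so its likeness to *Hpgds* also depends on the added 0.5 CPM. The likeness is a description over 6 samples that share libraries and depth.

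**Figure D3:**
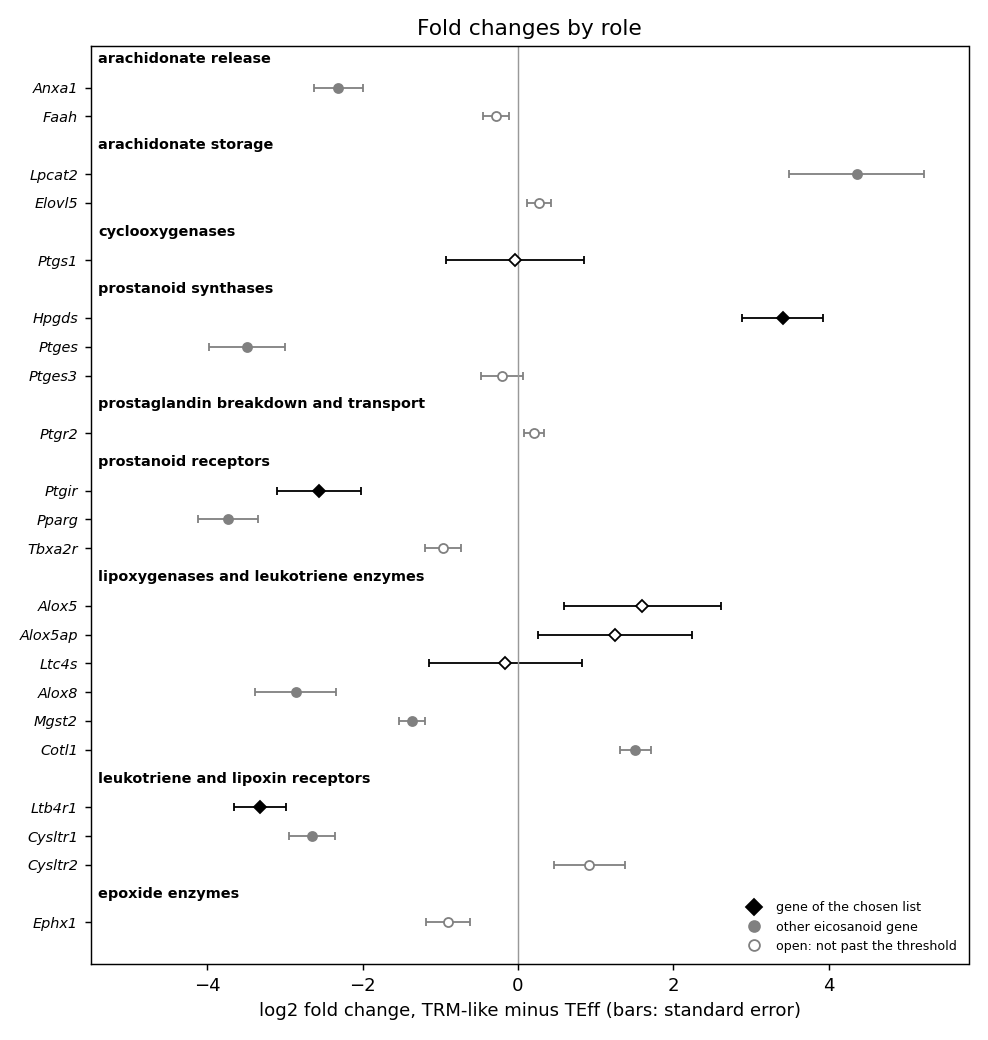
Log2 fold change, TRM-like minus TEff, of eicosanoid genes grouped by role, with bars for the standard error. Black diamonds are the genes of the chosen list and grey circles other genes of the pathway, and open symbols are genes not past the threshold. *Pla2g4a*, *Ptgs2*, and *Hpgd* had too few counts and are not drawn. *Hpgds* and *Ptges*, which compete for prostaglandin H2, lay on opposite sides at 3.41 and -3.49.

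The wider pathway was followed in 88 other genes, of which 64 could be tested. By the quasi-likelihood test of edgeR, with p-values adjusted over all genes tested by the Benjamini-Hochberg method, 2 rose in TRM-like samples, 6 fell, and 56 did not pass, so that 12.5% were past the threshold beside 3.01% of all genes tested. Without TRM-like replicate 3, 5 of 61 were higher and 15 lower, beside 1625 higher and 1954 lower of all 25478 genes tested. These genes were listed with earlier results of these data known, so the shares here are not read as a result on the pathway. The median log2 fold change was -0.10 over the 64 genes and 0.02 over all genes. Where every sample had at least 10 counts of the gene, 3 of 40 of the pathway passed (7.5%) beside 3.97% of 14822 genes. By role, 1 of 14 tested genes passed in arachidonate release, 1 of 10 in storage, 1 of 9 among prostanoid synthases, 0 of 6 in breakdown and transport, 3 of 11 among lipoxygenases and leukotriene enzymes, 0 of 3 among epoxide enzymes, 1 of 7 among prostanoid receptors, and 1 of 4 among leukotriene and lipoxin receptors.

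Before the cyclooxygenases, *Anxa1* and *Lpcat2* passed. *Anxa1* encodes annexin A1, known to inhibit phospholipase A2. It fell from 26.2 ± 2.59 CPM in TEff samples to 5.28 ± 2.34 CPM in TRM-like samples (SD, n = 3; log2 fold change -2.31, SE 0.31, edgeR adjusted p = 0.00491). *Lpcat2*, an acyltransferase that returns fatty acids to lysophospholipids and makes platelet-activating factor, rose from 1, 0, and 0 counts to 9, 15, and 7 counts, a ratio of 27.4 with an exact 95% counting interval of 4.57 to 1120 (edgeR adjusted p = 0.0314). The call on *Lpcat2* was lost without any single TEff replicate and without TRM-like replicate 1 or 2. *Faah*, a hydrolase of fatty acid amides, and *Elovl5*, a fatty acid elongase, had the highest RPKM of the release and storage genes, and their log2 fold changes of -0.28 and 0.27 did not pass (edgeR adjusted p = 0.522 and 0.483).

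Among the prostanoid synthases, *Ptges*, the inducible prostaglandin E synthase, fell while *Hpgds* was higher. *Ptges* was counted 33, 22, and 28 times in TEff replicates 1 to 3 and 2, 5, and 1 times in TRM-like replicates 1 to 3. Its mean went from 1.39 ± 0.240 CPM to 0.117 ± 0.090 CPM (SD, n = 3; log2 fold change -3.49, SE 0.49, edgeR adjusted p = 0.00629). The other prostaglandin E synthases did not pass, with *Ptges3* at a log2 fold change of -0.20 (edgeR adjusted p = 0.792) and *Ptges2* at 0.10 (edgeR adjusted p = 0.838). *Ptgds*, the other prostaglandin D synthase, was counted 4 to 8 times in TEff samples and 8 to 10 times in TRM-like samples (log2 fold change 0.26, edgeR adjusted p = 0.840). *Ptgis*, the prostacyclin synthase, had no count in TEff samples and 6, 11, and 1 in TRM-like replicates 1 to 3 (edgeR adjusted p = 0.156). Of the breakdown and transport genes, *Ptgr2*, a reductase of prostaglandin metabolites, was the highest in RPKM and its log2 fold change of 0.21 did not pass (edgeR adjusted p = 0.535).

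Among the lipoxygenases and leukotriene enzymes, *Mgst2* and *Alox8* fell and *Cotl1* rose. *Mgst2*, a microsomal glutathione transferase that can make leukotriene C4 as *Ltc4s* does, fell from 65.1 ± 4.82 CPM to 25.3 ± 5.44 CPM (SD, n = 3; log2 fold change -1.36, SE 0.17, edgeR adjusted p = 0.00370). *Cotl1*, an actin-binding protein known to bind the lipoxygenase of *Alox5*, rose from 195 ± 9.41 CPM to 553 ± 140 CPM (log2 fold change 1.51, SE 0.20, edgeR adjusted p = 0.00447). *Cotl1* is also a general component of the actin cytoskeleton. *Alox8*, another lipoxygenase, was counted 30, 40, and 22 times in TEff samples and 5, 8, and 1 times in TRM-like samples (log2 fold change -2.86, SE 0.52, edgeR adjusted p = 0.0216), and its call was lost without any single TEff replicate and without TRM-like replicate 1. *Lta4h*, which makes leukotriene B4, was well counted and close between the groups, at 150 ± 11.3 CPM and 160 ± 10.1 CPM (log2 fold change 0.10, edgeR adjusted p = 0.791). *Ephx1*, the highest of the epoxide enzymes in RPKM, had a log2 fold change of -0.90 that did not pass (edgeR adjusted p = 0.160).

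**Figure D4:**
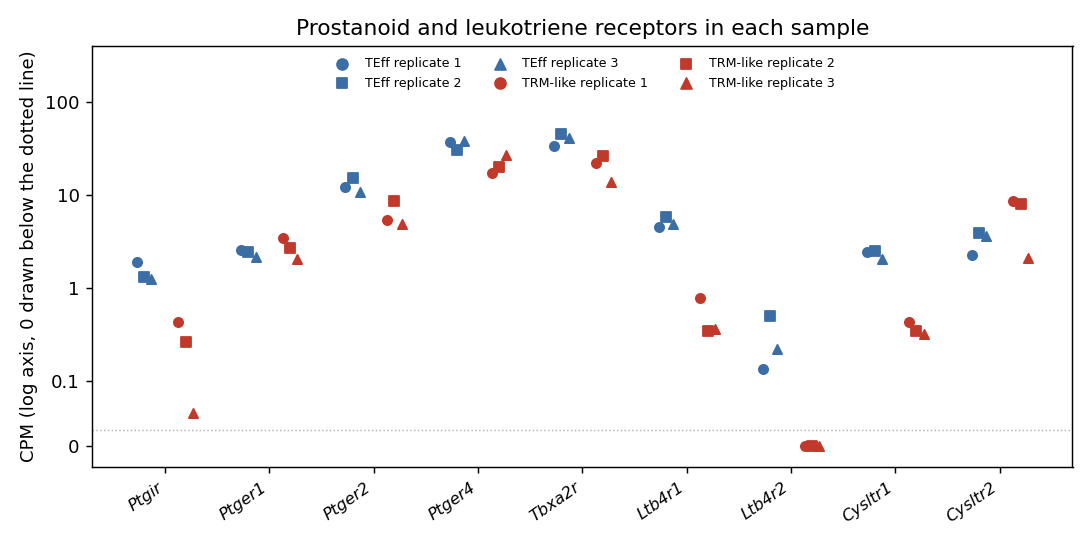
Level of prostanoid and leukotriene receptor genes in each sample, in CPM on a log axis, with samples at 0 drawn below the dotted line. Blue symbols are TEff and red symbols TRM-like samples. *Ptgir*, *Ltb4r1*, and *Cysltr1* were lower in every TRM-like sample, and *Cysltr2* was higher than the TEff samples in TRM-like replicates 1 and 2 and at 2.12 CPM in replicate 3.

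Of the 4 other leukotriene and lipoxin receptors tested, 1 passed. Beside *Ltb4r1*, *Cysltr1*, a receptor of cysteinyl leukotrienes, fell from 2.35 ± 0.265 CPM to 0.369 ± 0.0592 CPM (SD, n = 3; log2 fold change -2.65, SE 0.30, edgeR adjusted p = 0.00219). *Ltb4r2*, the low-affinity receptor for leukotriene B4, had 3, 10, and 4 counts in TEff samples and none in TRM-like samples, and did not pass (edgeR adjusted p = 0.0826). *Cysltr2* was at 2.29, 3.95, and 3.65 CPM in TEff samples and 8.59, 7.95, and 2.12 CPM in TRM-like samples. TRM-like replicate 3 was below all TEff samples and the others above them, and *Cysltr2* did not pass (log2 fold change 0.92, edgeR adjusted p = 0.415).

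Beside *Ptgir*, *Pparg*, a nuclear receptor that prostaglandin D2 metabolites can bind, fell from 57, 35, and 31 counts to 3, 4, and 3 counts (log2 fold change -3.73, SE 0.39, edgeR adjusted p = 0.00140). *Pparg* has many other ligands and roles in lipid metabolism. *Il1rl1*, the IL-33 receptor and a marker in the eosinophil or ILC2 list, fell alongside, from 37, 16, and 33 counts to 6, 4, and 4 counts (log2 fold change -2.76, SE 0.46, edgeR adjusted p = 0.013), and its part in the results on *Ltb4r1*, *Ptgir*, *Pparg*, *Cysltr1*, and *Ptges* was not tested. The thromboxane receptor *Tbxa2r* and the prostaglandin E2 receptors *Ptger2* and *Ptger4*, which raise cAMP as *Ptgir* does, had lower values in every TRM-like sample but did not pass, with log2 fold changes of -0.96, -1.02, and -0.73 (edgeR adjusted p = 0.0651, 0.0665, and 0.0847). With DESeq2 *Tbxa2r* did pass (DESeq2 adjusted p = 0.00739). Values from DESeq2 were not read out for *Ptger2* and *Ptger4*, so their result rests on edgeR alone. *Ptger1* was at 0.20 (edgeR adjusted p = 0.779). The prostaglandin D2 receptors were near the limit of counting, with 1 count of *Ptgdr* over all samples and 1 to 7 counts of *Ptgdr2* in each.

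**Figure D5:**
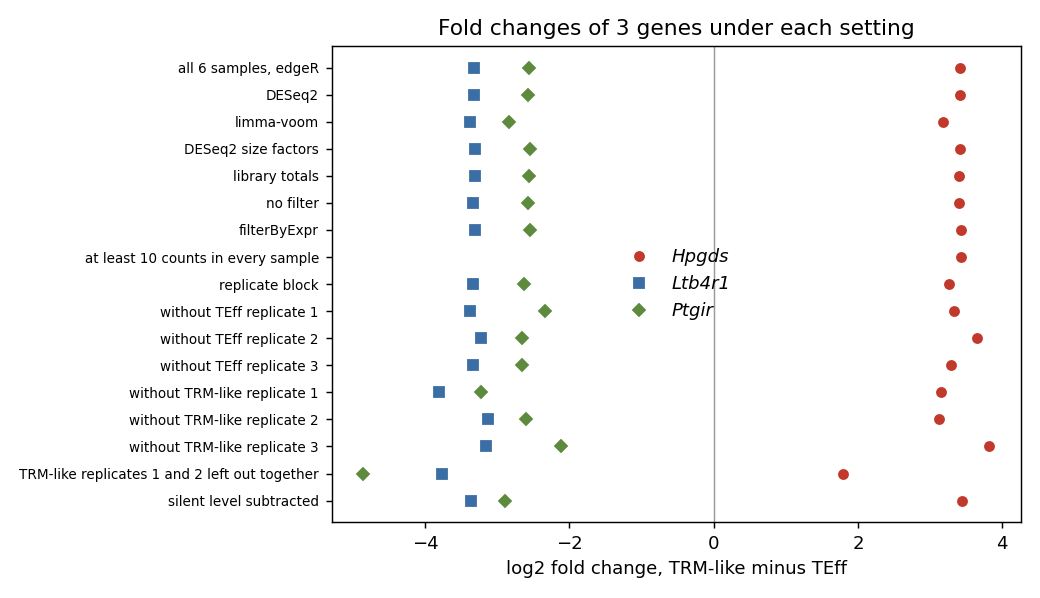
Log2 fold change, TRM-like minus TEff, of *Hpgds* (red circles), *Ltb4r1* (blue squares), and *Ptgir* (green diamonds) under each way of processing the counts, 1 row per setting. *Hpgds* stayed above 0 throughout, with its lowest value of 1.79 when TRM-like replicates 1 and 2 were left out together, where *Ptgir* reached -4.86. *Ltb4r1* and *Ptgir* have no value where at least 10 counts were asked of every sample.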

How the data were processed

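RNA sequencing was analysed in 6 samples, 3 TEff and 3 TRM-like, grouped by their labels. The authors used Cutadapt 4.8 for trimming and Rsubread, with GENCODE gene models on GRCm39, for mapping and counting. They deposited unnormalized counts for each gene and the gene length in bases. The strand setting and the batch that the study removed are not given in the sources used here, so no batch was fitted. Symbols came from a later GENCODE release of the same build, in which 56620 of 57126 genes were found.

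Counts were tested with edgeR 4.0.16 (TMM, glmQLFit, glmQLFTest) in R 4.3.3 on the 26154 genes counted in 3 or more samples (1 count or more), with Benjamini-Hochberg adjustment and the study's thresholds. The SE is the absolute log2 fold change divided by the square root of F. The alternatives were DESeq2 1.42.0, limma 3.58.1 (voom), other scalings and filters, the replicate block, and leaving out single samples. A further 2 settings, TRM-like replicates 1 and 2 left out together and the silent level subtracted, were chosen after seeing the data. The test was checked on simulated counts, where 200 genes with a mean of at least 10 counts were changed 4-fold. Of these 87% were recovered, and 5.95% of the genes called were false. The counts were drawn independently for each sample, so the check covers neither genes with few counts nor the split among the TRM-like samples. Genes differed less in their spread in the simulated counts than in the data (prior degrees of freedom 15.5 against 4.97), so these shares may be too favourable.

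The 10 genes, the lists, and the tests were chosen with earlier results of these data known. Named beside the 10 were the other pathway genes past the threshold, the gene of highest mean RPKM per role, the 3 genes nearest in pattern, and overlapping genes. *Pla2g6*, *Il1rl1*, *Ptges2*, *Ptgds*, *Ptgis*, *Lta4h*, *Ltb4r2*, *Ptger1*, *Ptger2*, *Ptger4*, *Ptgdr*, and *Ptgdr2* were named after their values were seen. A gene near *Hpgds* in pattern and 1 list of markers are not reported here. Counting intervals and floors cover counting error only.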

Additional observations from a re-analysis of the deposited data

How the results depend on the processing

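Over all genes, 786 were past the threshold, against 1256 with DESeq2, 1868 of 42234 with no filter, and 263 to 3579 with single samples left out, the highest without TRM-like replicate 3. The other eicosanoid genes past the threshold numbered 8, against 13 with DESeq2, 19 with no filter, 3 where at least 10 counts were asked of every sample, and 6 to 20 with single samples left out. Without TRM-like replicate 3 they were 5 higher and 15 lower of 61, beside 1625 higher and 1954 lower of all 25478 genes tested. With no filter the median log2 fold change of all genes was 0.379. With the replicate block the counts were 2034 and 20. In the fits with no filter and with the replicate block, edgeR gave every gene the shared spread alone. Their prior degrees of freedom were infinite, against 4.97 in the main fit, so their p-values do not reflect a gene's own spread. Same-numbered samples correlated in their deviations at -0.332, 0.345, and 0.416. TEff replicate 3 and TRM-like replicates 2 and 3 alone correlated best with their own number. The split among the TRM-like samples also entered these deviations, so they could not decide whether same-numbered samples were paired or shared a batch.

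With single samples left out, the log2 fold changes ran from 3.13 to 3.82 for *Hpgds*, -3.80 to -3.12 for *Ltb4r1*, and -3.22 to -2.11 for *Ptgir*. With TRM-like replicates 1 and 2 left out together, where TRM-like replicate 3 is assumed to vary like the TEff samples, they were 1.79, -3.76, and -4.86, and with the silent level subtracted that of *Ptgir* was -2.89. The cause was not tested. *Hpgds* was not past the threshold in limma-voom or without any single TEff replicate, *Ptgir* was not past it without any single TEff replicate or TRM-like replicate 2, and *Alox5* was past it only where TRM-like replicate 3 was left out, among the settings run. *Ltb4r1* was past it wherever it was tested with more than 1 sample in each group. Since these genes were chosen on the same comparison, nothing is read from which settings kept them past the threshold. *Cysltr2*, not past the threshold with all samples, was past it with no filter, the replicate block, and TRM-like replicate 3 left out, and had the opposite sign with TRM-like replicates 1 and 2 left out (-0.63). *Tbxa2r*, *Ephx1*, and *Ptges3*, also not past it with all samples, were past it without TRM-like replicate 3 (-0.75, -0.64, and -0.62). *Tbxa2r* and *Ephx1* were also past it with no filter and the replicate block, and *Tbxa2r* with DESeq2. The fits with no filter and the replicate block gave no weight to a gene's own spread, for *Cysltr2* as well. With TRM-like replicates 1 and 2 left out, the log2 fold changes of *Tbxa2r* and *Ephx1* were -1.53 and -1.70. Depth limits the 7 genes with at most 11 counts.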
